A study of Mus musculus with 3 samples.

Results

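The genes described here encode the proteins of the mitochondrial ribosome, and they were chosen by name, as all genes in the deposited table whose symbol starts with Mrps or Mrpl followed by a number. Of the 25206 genes measured, 76 met this rule, 28 with a small-subunit name (Mrps) and 48 with a large-subunit name (Mrpl). The rule reads names only, though the gene family was picked with earlier results of these data known. RNA came from the tibialis anterior, a fast muscle of the lower leg, of male mice of the CD2F1 cross (strain CD2 in the labels) that were 10 weeks old at vector injection. In the C26 FoxP1-shRNA group, the muscle received an AAV9 vector with a U6-driven short hairpin RNA against FoxP1 and an mCherry marker, and the mice then received 500000 colon 26 (C26) adenocarcinoma cells in each flank, a tumour that causes muscle wasting. In the C26 scrambled-shRNA group, called C26 below, tumour-bearing mice carried a scrambled hairpin and a GFP marker in the same muscle. In the Sham group, the vector was the scrambled one and PBS was given in place of tumour cells. All muscles received 1e+11 vector genomes 2 weeks before tumour cells or PBS and were collected 26 days after them, so every group carries a virus and a hairpin, and the FoxP1 hairpin and its marker cannot be told apart. Each group was 1 Affymetrix Mouse Gene 2.0 ST array hybridized with RNA pooled from 3 mice.

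Mitochondria carry their own small genome, and the few proteins it encodes, all of them membrane subunits of the respiratory chain and the ATP synthase, are made by a dedicated ribosome inside the organelle. The ribosomal RNAs of this machine come from mitochondrial DNA, whereas every one of its proteins is encoded in the nucleus, made in the cytosol and imported. The small subunit binds the messenger RNA and reads the codon, the large subunit joins the amino acids and releases the chain into the inner membrane, and skeletal muscle, with its high demand for oxidative ATP, depends on both.

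Stretches of sequence just before the start of transcription are given first for the members on which later comparisons turn, from the RefSeq promoter windows of build GRCm38.p6, which reach from 250 bases before each start to 50 bases after it. A window was matched for 67 of the 76 members, and Mrpl4, Mrpl13, Mrpl15, Mrpl19, Mrpl38, Mrpl54, Mrps28, Mrps34 and Mrps35 were without one. Many of these genes sit head to head with another gene on the opposite strand, and the following lines hold the whole stretch between the starts of 3 such pairs, Mrps11 with Mrpl46 (chr7:78783090-78783130, plus strand), Mrps12 with Sars2 (chr7:28741822-28741967, minus strand) and Mrpl18 with Tcp1 (chr17:12916092-12916328, minus strand).
Mrps11: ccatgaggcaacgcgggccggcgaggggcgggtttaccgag
Mrps12: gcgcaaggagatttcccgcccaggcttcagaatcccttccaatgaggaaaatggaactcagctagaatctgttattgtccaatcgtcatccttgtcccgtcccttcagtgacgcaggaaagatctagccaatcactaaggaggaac
Mrpl18: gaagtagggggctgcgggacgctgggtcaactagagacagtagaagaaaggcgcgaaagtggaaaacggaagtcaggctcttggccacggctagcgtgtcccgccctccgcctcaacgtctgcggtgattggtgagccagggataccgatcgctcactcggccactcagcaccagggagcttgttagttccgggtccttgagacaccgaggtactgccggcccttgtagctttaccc

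The next lines show 60 bases each around short words known from nuclear genes of mitochondrial proteins, with the word in capitals. In Mrpl9 and Mrpl32 the capitals cover the word on both strands, and in Mrpl17 the word on the other strand. They are the ETS-family word CCGGAAGT, which GA-binding protein (also called nuclear respiratory factor 2) recognizes, in Mrps22 (chr9:98601680-98601739, minus strand) and Mrpl51 (chr6:125192080-125192139, plus strand), and the nuclear respiratory factor 1 word CGCATGCGC in Mrpl17 (chr7:105811088-105811147, minus strand), Mrpl9 (chr3:94443276-94443335, plus strand) and Mrpl32 (chr13:14613098-14613157, minus strand). The last line holds the forkhead word TGTTTAC, read on the other strand, in Mrpl44 (chr1:79775788-79775847, plus strand), since FoxP1 belongs to the forkhead family.
Mrps22: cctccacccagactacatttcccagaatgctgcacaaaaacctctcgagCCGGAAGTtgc
Mrpl51: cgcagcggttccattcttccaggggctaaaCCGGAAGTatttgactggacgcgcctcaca
Mrpl17: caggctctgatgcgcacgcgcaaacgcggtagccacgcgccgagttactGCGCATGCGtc
Mrpl9: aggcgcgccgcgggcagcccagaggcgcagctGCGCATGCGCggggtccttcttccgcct
Mrpl32: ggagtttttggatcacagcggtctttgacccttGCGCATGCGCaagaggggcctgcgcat
Mrpl44: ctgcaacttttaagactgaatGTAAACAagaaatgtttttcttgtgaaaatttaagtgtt

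Searched on both strands as exact letters, the ETS word was present in the windows of 10 of 67 members (14.9%) against 4.31% of all 27025 genes with a window and 5.69% of the 17491 protein-coding ones. The nuclear respiratory factor 1 word was present in 7 members (10.4%), Mrps18b, Mrpl9, Mrpl10, Mrpl17, Mrpl22, Mrpl32 and Mrpl39, against 1.95% of all genes and 2.61% of the protein-coding ones. The word AAGATGGCG, which the factor YY1 recognizes, was present in 8 members (11.9%) against 1.64% of all genes and 2.14% of the protein-coding ones. The forkhead word was present in Mrpl40 and Mrpl44 only (2.99%), against 4.05% of all genes and 3.45% of the protein-coding ones. The E-box word CACGTG was present in 4 members (5.97%), against 8.09% of all genes and 8.91% of the protein-coding ones. Neither the word TCAAGGTCA of estrogen-related receptors nor TAAAAATAG of MEF2 was in any of the 67 windows, against 0.466% and 0.570% of all genes. Among protein-coding genes these 2 shares were 0.377% and 0.469%. None of these words contains another. The word in Mrps22 began 11 bases before the start, that in Mrpl17 began 11 bases before it, and that in Mrpl44 began 209 bases before it. Mrpl18 was also among the 10 holders of the ETS word. There it began 240 bases before the start, so the stretch of 237 bases shown above holds only its last letters. A match is a description of the letters and does not show that a factor binds there.

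The deposited values are on a log2 scale, so a difference of 1 is a 2-fold difference. The median over all genes was 3.99 in C26 FoxP1-shRNA, 4.05 in C26 and 4.06 in Sham. Foxp1 had a log2 value of 6.52 in C26 FoxP1-shRNA, 7.31 in C26 and 6.41 in Sham, so the array of the knockdown group was lower than the C26 array by 0.79. With 1 array a group there is no replicate error, no difference can be set against the spread between mice, and sizes of 1.5-fold and 2-fold are used only as fixed marks. The 8 muscle fibre markers were bright on every array (log2 values of 10.51 to 12.39), close to the arrays' highest values of 12.25 to 12.45. Their median difference was -0.30 between C26 and Sham, with 7 of the 8 lower in C26, and 0.06 between C26 FoxP1-shRNA and C26. Markers of other cell types also differed between the arrays. The 9 neutrophil markers had a summed linear level of 223.2 in C26 FoxP1-shRNA, 302.4 in C26 and 81.9 in Sham, with 3, 4 and 0 of them above the array's median. In C26 against Sham, 8 neutrophil markers were higher and 1, Ly6g, was lower, and Mpo and Camp were higher by only 0.08 and 0.05. Between C26 FoxP1-shRNA and C26, 7 were lower and 2 higher. Ngp, at 3.12 in C26 FoxP1-shRNA, 5.03 in C26 and 3.15 in Sham, was near Sham with FoxP1-shRNA. The 6 fibroblast markers summed to 1995 in C26 FoxP1-shRNA, 1706 in C26 and 3235 in Sham. In C26 against Sham, 5 of them were lower and 1, Pdgfra, was higher. The 5 T cell markers summed to 40.2, 83.9 and 161.9 in the same order, and all 5 were lower in C26 than in Sham. Between C26 FoxP1-shRNA and C26, 3 T cell markers were lower and 2 higher. The gap in their sum there was mostly Cd3e, at 3.26, 5.68 and 6.09 in the same order. Of the erythroid markers 2 of 5 were measured, and they summed to 259.0, 94.3 and 68.4 in that order. This sum was mostly Alas2, at 7.98, 6.51 and 5.98. The other, Hbb-bs, was dim at 2.81, 1.58 and 2.40, and it was lower in C26 than in Sham whereas Alas2 was higher. The part of these cells in the results below was not tested, and in whole muscle fewer cells of a type and less RNA per cell cannot be told apart.

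Genes of the mitochondrial ribosome were lower in C26 muscle than in Sham muscle more often than genes at large. Of the 76 members, 55 had a lower value in C26 than in Sham, against 46.0% of all genes. The median log2 difference was -0.33 over the members and 0.03 over all genes. At least 1.5-fold lower values in C26 were found for 21 members, which is 27.6%, against 10.5% of all genes, and 6 members (7.89%) were at least 2-fold lower against 4.33% of all genes. In the other direction, 3 members (3.95%) were at least 1.5-fold higher in C26, against 10.1% of all genes, and 21 were higher at any size, against 53.3% of all genes. Since 73 of the 76 members were brighter than the array's median on each array, the same mark was also read among bright genes, those above the median on C26 or Sham, of which 16.96% were at least 1.5-fold lower and 15.05% at least 1.5-fold higher in C26. At the 2-fold mark 7.504% of bright genes were lower in C26, close to the members' share.

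With FoxP1-shRNA, the comparison with C26 ran the other way. In 59 of the 76 members the value was higher in C26 FoxP1-shRNA than in C26, against 44.8% of all genes, and the median difference was 0.37 over the members and -0.03 over all genes. At least 1.5-fold higher values were found for 13 members (17.1%), against 5.43% of all genes and 8.77% of bright genes, and at least 1.5-fold lower values for 2 members (2.63%), against 4.96% of all genes. None was at least 2-fold lower, against 1.06% of all genes. Both comparisons use the C26 array, so an error on that array moves them in opposite directions, and neither counts as support for the other. The value in C26 was the lowest of the 3 in 52 members (68.4%), 19 Mrps and 33 Mrpl genes, against 31.4% of all genes, and the highest in 14 (18.4%), against 39.8% of all genes. Between C26 FoxP1-shRNA and Sham, 71 of the 76 members (93.4%) differed by less than 1.5-fold, against 87.8% of all genes and 82.3% of those above the median on either array, with a median difference of -0.05 over the members and -0.004 over all genes. In this comparison 43 members were lower and 33 higher at any size, against 50.5% and 48.6% of all genes, none was at least 2-fold lower, against 2.17%, and 1 was at least 2-fold higher, against 1.61%.

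**Figure D1:**
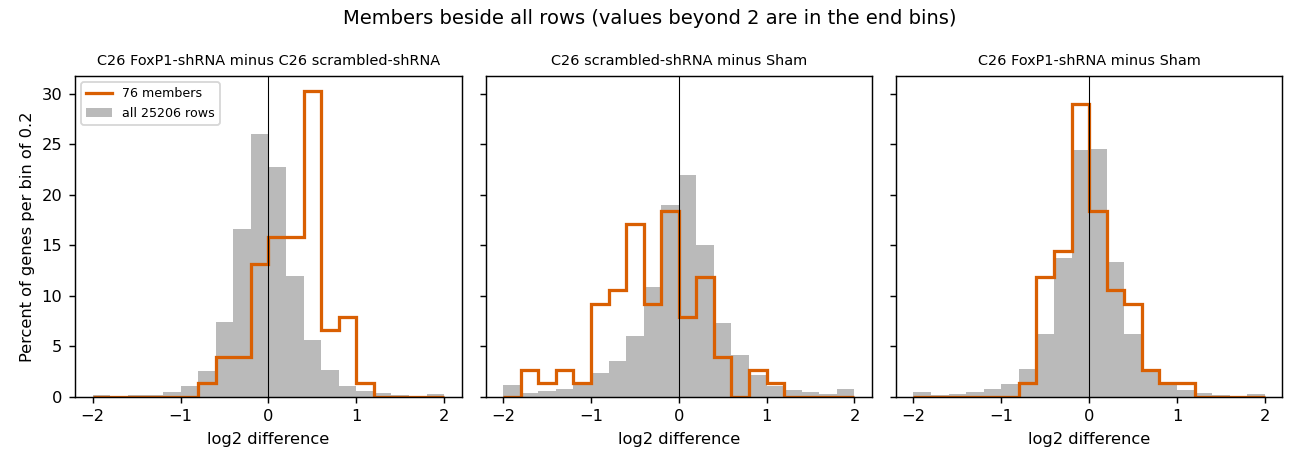
Distribution of log2 differences in bins of 0.2, as percent of the 76 members (line) and of all 25206 genes (grey area), for C26 FoxP1-shRNA minus C26 scrambled-shRNA (left), C26 scrambled-shRNA minus Sham (middle) and C26 FoxP1-shRNA minus Sham (right). The members' medians lie at 0.37, -0.33 and -0.05, against medians of -0.03, 0.03 and -0.004 over all genes.

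Scaling shifted these differences. Centring each array on the mean of 11 reference genes shifted all C26 FoxP1-shRNA over C26 differences by -0.16, after which 50 members remained above C26 and the members' median was 0.21. Such centring moves all genes by one constant and so cannot alter the distance of 0.40 between the members' median and that of all genes, which was 0.36 after a second quantile normalization. Centring each array on its median turned the members' median for C26 FoxP1-shRNA over Sham to 0.02. Under the 4 scalings used, between 46 and 52 members had their lowest value in C26.

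Among the small-subunit genes, Mrps22 had the largest deficit in C26 relative to Sham. In humans, mutations of this mitochondria-specific protein cause combined respiratory chain deficiency. Its log2 value was 5.77 in C26 FoxP1-shRNA, 4.85 in C26 and 6.28 in Sham, a 2.70-fold deficit in C26 relative to Sham and a 1.90-fold excess in C26 FoxP1-shRNA relative to C26. No other Mrps gene reached 2-fold in either comparison. Mrps21, of the bacterial S21 family, measured 9.02 in C26 FoxP1-shRNA, 8.37 in C26 and 9.27 in Sham. Mrps12, whose bacterial counterpart lies at the decoding centre, measured 6.38 in C26 FoxP1-shRNA, 5.86 in C26 and 6.74 in Sham. Mrps25, another gene mutated in human mitochondrial disease, measured 6.46 in C26 FoxP1-shRNA, 5.64 in C26 and 6.52 in Sham, so that with FoxP1-shRNA it differed from Sham by -0.06. These 3 genes were each between 1.84-fold and 1.88-fold lower in C26 than in Sham. Mrps28 measured 7.09 in C26 FoxP1-shRNA, 6.73 in C26 and 7.49 in Sham. Mrps11, a protein of the S11 family, measured 6.05 in C26 FoxP1-shRNA, 5.64 in C26 and 6.30 in Sham and was the sixth Mrps gene at least 1.5-fold lower in C26.

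**Figure D2:**
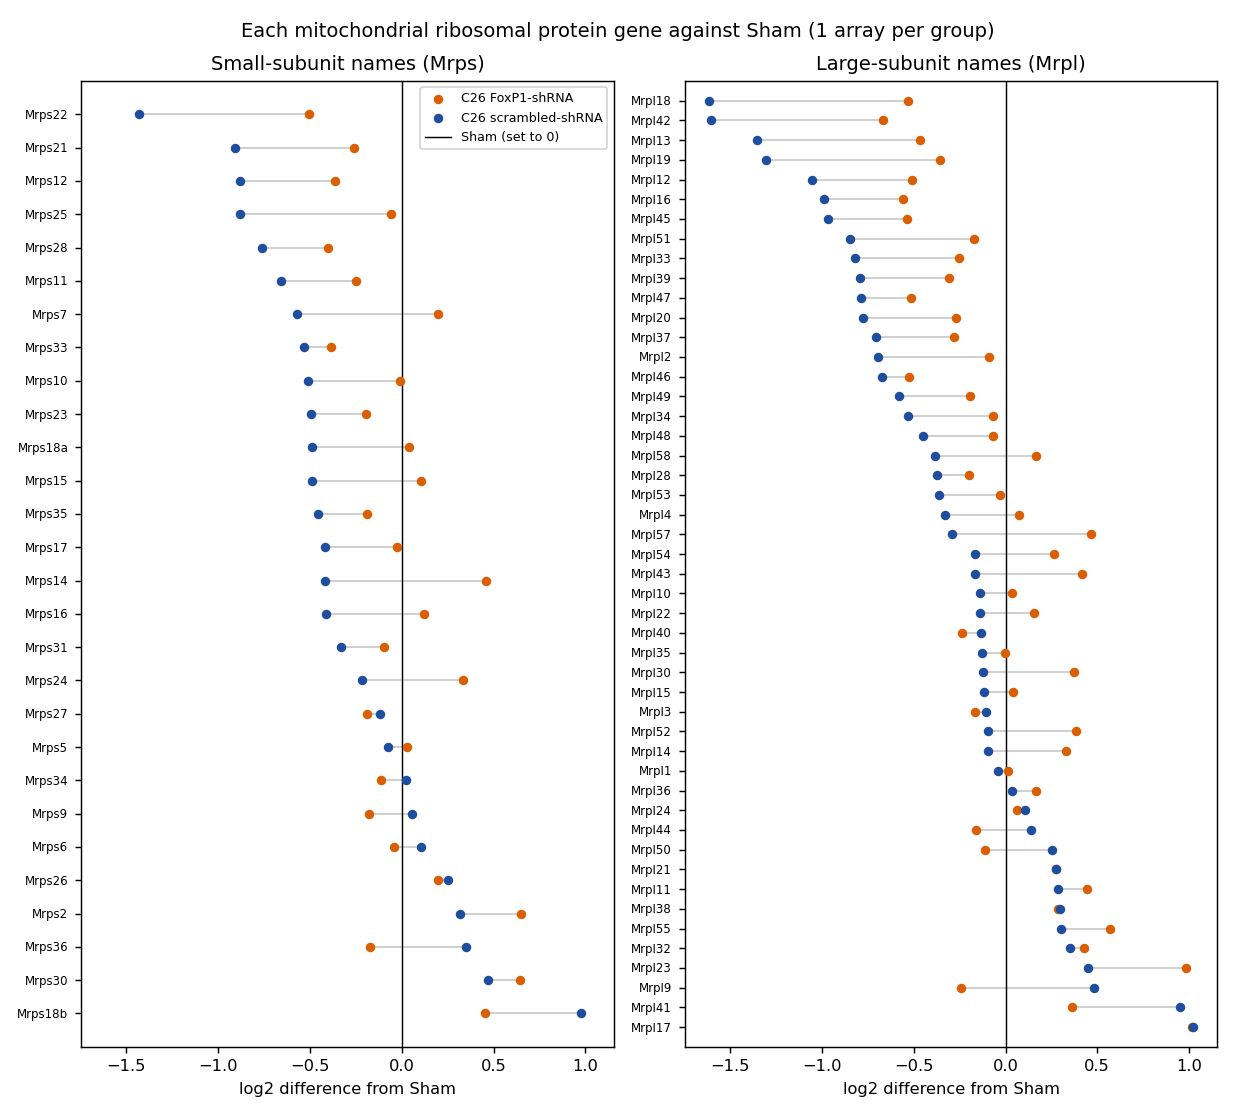
Log2 difference from Sham of every Mrps gene (left) and Mrpl gene (right), for C26 FoxP1-shRNA and C26 scrambled-shRNA, with 1 array of 3 pooled mice per group and no error bars because there are no replicates. Blue points lie left of the Sham line for 20 of 28 Mrps and 35 of 48 Mrpl genes, and the orange point lies right of the blue one for 21 Mrps and 38 Mrpl genes.

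A second set of small-subunit genes was lower in C26 by less than 1.5-fold and higher than Sham with FoxP1-shRNA. Mrps7, an early-binding protein of the head of the subunit, measured 7.69 in C26 FoxP1-shRNA, 6.92 in C26 and 7.49 in Sham, so that the FoxP1-shRNA array exceeded the C26 array 1.71-fold. Mrps15, which binds the central part of the ribosomal RNA, measured 9.22 in C26 FoxP1-shRNA, 8.63 in C26 and 9.11 in Sham. Mrps16 measured 6.03 in C26 FoxP1-shRNA, 5.49 in C26 and 5.90 in Sham. Mutations of Mrps7, Mrps14 and Mrps16 are all known from human respiratory chain disease. Mrps14 followed the same order, at 2.148 in C26 FoxP1-shRNA, 1.27 in C26 and 1.69 in Sham, but these values are near the bottom of the scale, where folds are uncertain.

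Another 8 Mrps genes were above Sham in C26, 1 of them by at least 1.5-fold. This was Mrps18b, an S18-family protein of the small subunit, at 8.75 in C26 FoxP1-shRNA, 9.28 in C26 and 8.30 in Sham, a C26 over Sham ratio of 1.97. Its paralog Mrps18a, which sits in the large subunit, measured 7.12 in C26 FoxP1-shRNA, 6.59 in C26 and 7.08 in Sham. Both paralogs measured here thus differed from Sham in C26 in opposite directions, and the third, Mrps18c, was not analysed here. Mrps30, which also sits in the large subunit despite its name, measured 7.20 in C26 FoxP1-shRNA, 7.03 in C26 and 6.56 in Sham. Mrps2, a protein mutated in human mitochondrial disease, measured 6.85 in C26 FoxP1-shRNA, 6.52 in C26 and 6.20 in Sham, so both tumour groups were above Sham for these 2 genes. Mrps26 measured 6.997 in C26 FoxP1-shRNA, 7.06 in C26 and 6.80 in Sham. Mrps36, now known as a subunit of the alpha-ketoglutarate dehydrogenase complex and not of the ribosome, was near the bottom of the scale at 1.57, 2.10 and 1.75 in the same order. For Mrps6, Mrps9 and Mrps34 the largest distance between any 2 of the 3 arrays was under 0.25 on the log2 scale. Their values were 6.97, 7.12 and 7.02 for Mrps6 in C26 FoxP1-shRNA, C26 and Sham. Mrps9, of the S9 family, measured 6.52, 6.76 and 6.71 in that order, and Mrps34 measured 6.65, 6.78 and 6.76.

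Among the large-subunit genes, 5 had a C26 value at least 2-fold below Sham, and each of the 5 had an intermediate value with FoxP1-shRNA. Mrpl18, whose bacterial counterpart binds RNA in the central protuberance, had the largest deficit relative to Sham, at 7.98 in C26 FoxP1-shRNA, 6.89 in C26 and 8.51 in Sham. The ratios are 3.06-fold lower for C26 over Sham and 2.12-fold higher for C26 FoxP1-shRNA over C26, and this was the only member at least 2-fold higher in the second comparison, against 1.44% of all genes. Mrpl42, a protein without a bacterial counterpart, measured 7.43 in C26 FoxP1-shRNA, 6.49 in C26 and 8.09 in Sham. It was the only member still at least 1.5-fold below Sham with FoxP1-shRNA (1.59-fold), against 6.40% of all genes. Mrpl13, of the early-assembling L13 family, measured 6.46 in C26 FoxP1-shRNA, 5.58 in C26 and 6.93 in Sham. Mrpl19 measured 5.94 in C26 FoxP1-shRNA, 4.99 in C26 and 6.30 in Sham. Mrpl12, the stalk protein that recruits elongation factors, measured 8.03 in C26 FoxP1-shRNA, 7.49 in C26 and 8.54 in Sham, a 2.08-fold lower value in the C26 array relative to Sham.

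Another 10 Mrpl genes were between 1.5-fold and 2-fold lower in C26 than in Sham, namely Mrpl2, Mrpl16, Mrpl20, Mrpl33, Mrpl37, Mrpl39, Mrpl45, Mrpl46, Mrpl47 and Mrpl51. Mrpl45, which anchors the ribosome to the inner membrane, measured 7.24 in C26 FoxP1-shRNA, 6.81 in C26 and 7.78 in Sham. Mrpl39, a large-subunit protein near the exit of the peptide tunnel, measured 7.77 in C26 FoxP1-shRNA, 7.29 in C26 and 8.08 in Sham. Of all 21 members at least 1.5-fold lower in C26, each of the 21 was higher with FoxP1-shRNA than in C26, 9 of them by at least 1.5-fold, and all 21 were below Sham with FoxP1-shRNA, by -0.06 to -0.66 with a median of -0.36. These genes were picked by the C26 and Sham arrays and then compared with the same arrays, which favours a value in between. Of the 2657 genes of the whole table picked in this way, 85.6% were higher with FoxP1-shRNA than in C26, 35.3% by at least 1.5-fold, against 42.9% of the 21 members, and 93.0% were below Sham. Under other scalings 20 of 21 kept the first order with the reference genes and 20 of 21 the second with each array centred on its median. Mrpl57, a short protein without a bacterial counterpart, was less than 1.5-fold lower in C26 and 1.70-fold above C26 with FoxP1-shRNA, at 5.78 in C26 FoxP1-shRNA, 5.01 in C26 and 5.31 in Sham.

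**Figure D3:**
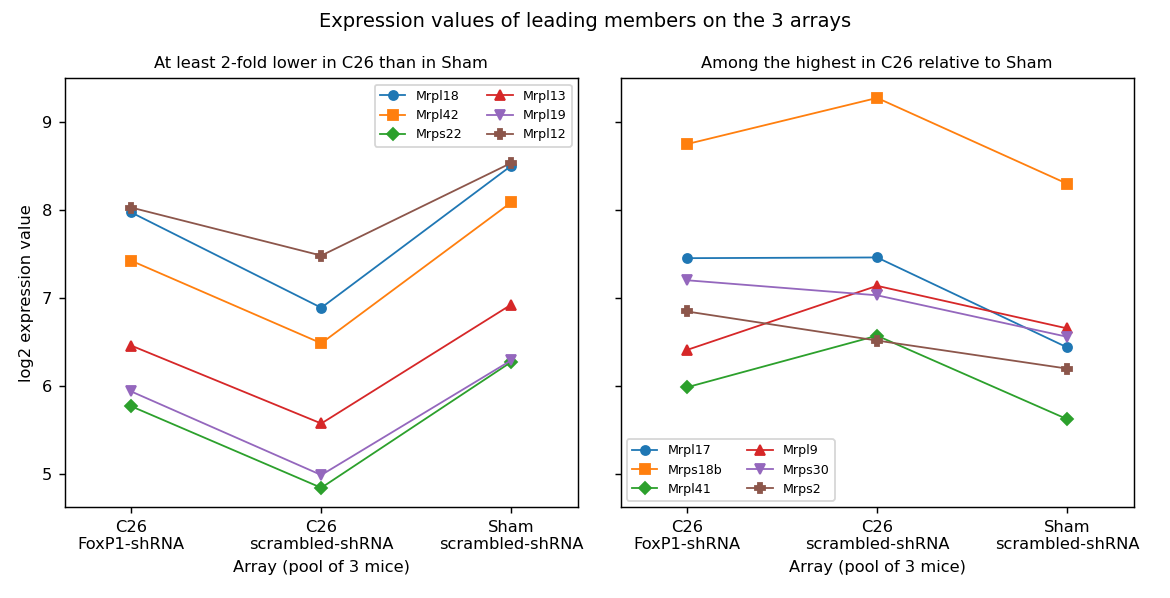
Log2 expression value on each array (C26 FoxP1-shRNA, C26 scrambled-shRNA, Sham) for the 6 members at least 2-fold lower in C26 than in Sham (left) and for 6 of the members highest in C26 relative to Sham (right); lines join the 3 arrays of a gene. On the left each gene is lowest in C26, with Mrpl18 at 6.89 against 8.51 in Sham; on the right Mrps18b, Mrpl41 and Mrpl9 are highest in C26, Mrpl17 is level at 7.46 in both tumour groups, and Mrps30 and Mrps2 are highest with FoxP1-shRNA.

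Mrpl17 was the one member at least 2-fold higher in C26 than in Sham, against 3.34% of all genes. This protein of the tunnel exit measured 7.46 in C26 FoxP1-shRNA, 7.46 in C26 and 6.44 in Sham, so the tumour groups differed by 0.01 and FoxP1-shRNA left it 2.02-fold above Sham. Mrpl41 measured 5.99 in C26 FoxP1-shRNA, 6.57 in C26 and 5.63 in Sham. Mrpl9, of the L9 family, measured 6.41 in C26 FoxP1-shRNA, 7.14 in C26 and 6.66 in Sham. Mrpl9 (1.66-fold) and Mrpl41 (1.501-fold) were the only members whose FoxP1-shRNA value was at least 1.5-fold below C26. Mrpl32, a zinc-binding protein trimmed by a mitochondrial protease before it joins the ribosome, measured 5.84 in C26 FoxP1-shRNA, 5.76 in C26 and 5.41 in Sham. Mrpl23 measured 3.98, 3.45 and 2.9996 in that order, below the array's median on all 3 arrays. Mrpl50 and Mrpl40 were also lower with FoxP1-shRNA than in C26. Mrpl50, a protein without a bacterial counterpart, measured 7.52 in C26 FoxP1-shRNA, 7.89 in C26 and 7.64 in Sham, and Mrpl40 measured 5.98, 6.08 and 6.22 in that order. Among the 7 holders of the nuclear respiratory factor 1 word shown above, Mrps18b, Mrpl17, Mrpl9 and Mrpl32 were higher and Mrpl10, Mrpl22 and Mrpl39 lower in C26 than in Sham, with a median of 0.35 against -0.38 over the other 60 members with a window. The 10 holders of the ETS word had a median of -0.31 against -0.33 over the other 57. These medians are a description, since the words were settled with the values known. With FoxP1-shRNA, 4 members were at least 1.5-fold above Sham, Mrpl17, Mrpl23, Mrps2 and Mrps30, against 5.76% of all genes.

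By subunit, the median C26 over Sham difference was -0.42 for the Mrps genes (quartiles -0.54 and 0.03) and -0.17 for the Mrpl genes (quartiles -0.72 and 0.05). The means were -0.30 and -0.31, so the gap between the subunits' medians was not present in the means, and the Mrpl genes spread further on the low side. With FoxP1-shRNA against C26, the medians were 0.34 for Mrps and 0.39 for Mrpl genes, and against Sham they were -0.05 for both. Counting Mrps30 and Mrps18a with the large subunit, where they sit, and leaving out Mrps36, together left each of these medians within 0.1. Members with a bacterial counterpart, the older core of the ribosome, had medians of -0.42 (17 Mrps) and -0.13 (29 Mrpl) in C26 against Sham, and those without one had medians of -0.33 (11 Mrps) and -0.36 (19 Mrpl).

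Smaller groups by position in the ribosome were mixed. The 5 stalk genes, whose proteins form the arm and its base where elongation factors bind, were all higher with FoxP1-shRNA than in C26 by 0.15 to 0.55, and 4 of the 5 were lower in C26 than in Sham. Over all members these shares were 77.6% and 72.4%, and over all genes 44.8% and 46.0%. Beside Mrpl12, the stalk genes were Mrpl10 at 6.83, 6.65 and 6.79 in C26 FoxP1-shRNA, C26 and Sham, and Mrpl11 at 6.55, 6.40 and 6.11, the one stalk gene above Sham in C26. Mrpl53 measured 8.56, 8.22 and 8.59 and Mrpl54 7.96, 7.53 and 7.69 in the same order. Only Mrpl12 passed 1.5-fold among them, and with the reference-gene scaling Mrpl11 was 0.01 lower with FoxP1-shRNA than in C26. Of 7 genes listed here for the tunnel exit, 3 were lower and 4 higher in C26 than in Sham, against 46.0% and 53.3% of all genes. Their median difference was 0.11, with a range of -0.97 for Mrpl45 to 1.02 for Mrpl17. The list need not be complete, as Mrpl47 (-0.79) was not on it, so the split and the median hold for these 7 only. Mrpl22 measured 4.88 in C26 FoxP1-shRNA, 4.59 in C26 and 4.73 in Sham. Mrpl24 measured 7.76, 7.81 and 7.70 and Mrpl44 5.66, 5.96 and 5.82 in that order, so that both stayed within 1.5-fold of Sham. The 11 members listed as mutated in human respiratory chain disease gave medians of -0.42 for C26 over Sham and 0.53 for C26 FoxP1-shRNA over C26. Of them 4 (36.4%), Mrps22, Mrps25, Mrps28 and Mrpl12, were at least 1.5-fold lower in C26, against 27.6% of all 76 members and 10.5% of all genes. This list, too, need not be complete. Mrpl3, also on that list, measured 6.91 in C26 FoxP1-shRNA, 6.97 in C26 and 7.08 in Sham.

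The brightest members on the arrays kept within 1.5-fold between C26 and Sham unless already named. Mrpl30, of the L30 family, measured 9.51 in C26 FoxP1-shRNA, 9.02 in C26 and 9.14 in Sham. Mrpl58, which is also a peptidyl-tRNA hydrolase that rescues stalled ribosomes, measured 8.59 in C26 FoxP1-shRNA, 8.04 in C26 and 8.43 in Sham. At the dim end Mrpl36 measured 4.33, 4.20 and 4.16 in that order. Log2 values of different genes rest on different probes, so they give no order of abundance among the members. Mrpl27 was not analysed here.

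Genes for ribosome proteins with other names followed the same order. Dap3, a GTP-binding protein of the small subunit, measured 6.39 in C26 FoxP1-shRNA, 5.81 in C26 and 6.23 in Sham. Ptcd3, an RNA-binding small-subunit protein, measured 7.59 in C26 FoxP1-shRNA, 7.30 in C26 and 8.03 in Sham, and Chchd1 measured 5.47, 5.10 and 5.85 in that order. With Aurkaip1 (6.90, 6.61 and 6.83) and Gadd45gip1 (5.89, 5.59 and 5.99), all 5 were lower in C26 than in Sham, by 0.22 to 0.75, and higher with FoxP1-shRNA than in C26, by 0.29 to 0.58, also under the 3 other scalings. Over all members these shares were 72.4% and 77.6%, and over all genes 46.0% and 44.8%. Of 30 factors for mitochondrial translation and ribosome assembly, 21 (70%) were lower in C26 than in Sham (median -0.32), against 46.0% of all genes. At least 1.5-fold lower were 9 of the 30 (30%), against 10.5% of all genes. With FoxP1-shRNA 21 (70%) were higher than in C26 (median 0.16), against 44.8% of all genes. Taco1, a translational activator of a cytochrome oxidase subunit, measured 5.98 in C26 FoxP1-shRNA, 5.55 in C26 and 7.003 in Sham so that a 2.03-fold gap to Sham was left with FoxP1-shRNA. Slirp, which stabilizes mitochondrial messenger RNAs, measured 5.88 in C26 FoxP1-shRNA, 5.03 in C26 and 6.42 in Sham. Mtif2, an initiation factor, measured 6.40, 5.89 and 6.83 in that order, and Guf1, an elongation-related GTPase, 6.18, 5.82 and 6.65. Malsu1, a factor of large-subunit assembly, went against the list, at 7.78 in C26 FoxP1-shRNA, 8.02 in C26 and 7.24 in Sham. With the reference-gene scaling the median of these 30 with FoxP1-shRNA against C26 was -0.01, so their direction in that comparison depended on the scaling.

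Set beside the mitochondrial ribosome, the 58 genes of the cytosolic ribosome had a median C26 over Sham difference of 0.15. Their median with FoxP1-shRNA against C26 was -0.01. In C26 against Sham, 5 of them (8.62%) were at least 1.5-fold lower and 8 (13.8%) at least 1.5-fold higher, against 10.5% and 10.1% of all genes. The cytosolic list was dim on these arrays, with a median log2 value of 4.25 in C26 and 4.09 in Sham, near the median of all genes, against 6.56 and 6.75 for the members, and since array differences of dim genes tend to be compressed, the lists are not on an equal footing. The 33 nuclear genes of respiratory complex I, whose partner subunits the mitochondrial ribosome makes, had medians of -0.80 in C26 against Sham and 0.37 with FoxP1-shRNA against C26. With FoxP1-shRNA the median difference from Sham was -0.31 for complex I and -0.05 for the mitochondrial ribosome. Messages made from mitochondrial DNA were not analysed here.

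**Figure D4:**
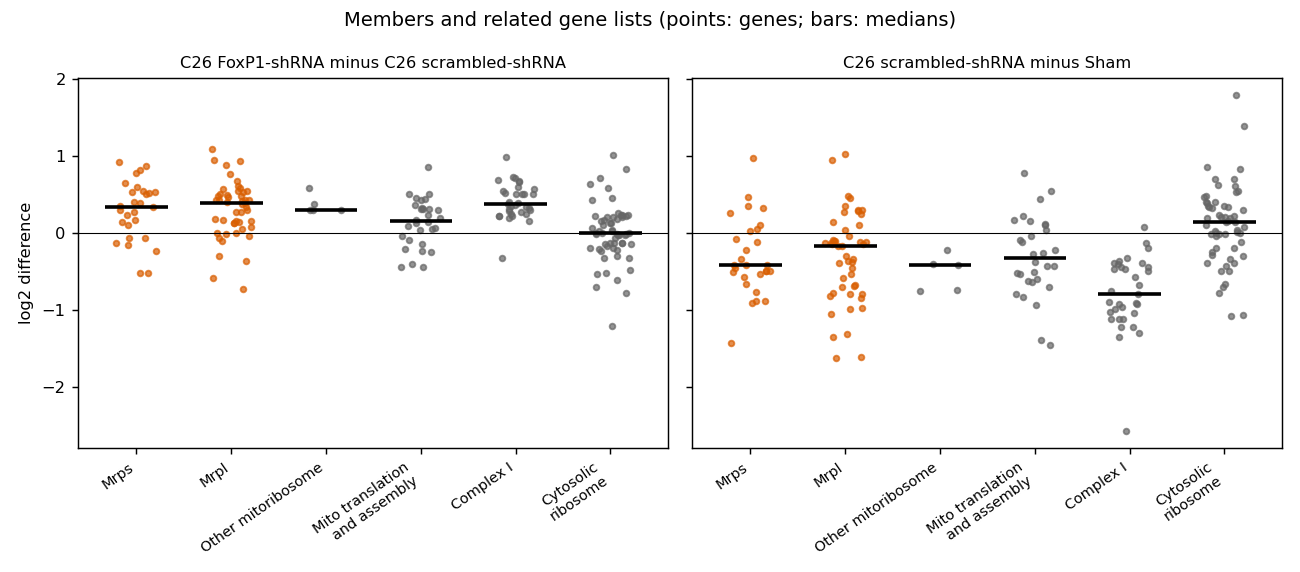
Log2 difference of each gene for C26 FoxP1-shRNA minus C26 scrambled-shRNA (left) and C26 scrambled-shRNA minus Sham (right), in the Mrps and Mrpl genes (orange) and in 4 related lists (grey); bars are medians over genes, sideways scatter has no meaning. Medians of the right panel are -0.42 (Mrps), -0.17 (Mrpl), -0.42 (other ribosome proteins), -0.32 (translation and assembly factors), -0.80 (complex I) and 0.15 (cytosolic ribosome).

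Head-to-head placement was common among the members. Of the 67 with a window, 19 (28.4%) had the start of another protein-coding gene within 500 bases on the opposite strand, running away from it, against 7.53% of protein-coding genes. In 1 pair both genes were members: Mrps11 and Mrpl46, whose starts leave 41 bases between them, were 0.66 and 0.67 lower in C26 than in Sham on the log2 scale. Mrpl46 measured 4.79 in C26 FoxP1-shRNA, 4.65 in C26 and 5.32 in Sham. Mrps12 shares its stretch of 146 bases with Sars2, the mitochondrial seryl-tRNA synthetase, and Sars2 measured 5.20 in C26 FoxP1-shRNA, 4.79 in C26 and 5.66 in Sham. Mrps12 and Sars2 differed from Sham in C26 by -0.88 and -0.87. Mrpl47 and its neighbour Ndufb5, a complex I subunit, differed by -0.79 and -0.57.

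Not all pairs went together. Mrpl18 and Tcp1, a subunit of the cytosolic chaperonin, differed from Sham in C26 by -1.62 and 0.40 across 237 bases, and Tcp1 measured 9.48 in C26 FoxP1-shRNA, 9.52 in C26 and 9.12 in Sham. Of the 17 pairs with a neighbour that was no member, both genes were lower in C26 than in Sham in 9, both higher in 3 and opposite in 5. Over all members 72.4% were lower in C26 than in Sham, and over all genes 46.0%. Head-to-head pairs of other genes were not counted, so whether paired genes went together more often than unpaired ones was not tested. The median difference was -0.17 for the members of these pairs and -0.04 for their neighbours, and 5 of these 17 members and 1 neighbour were at least 1.5-fold lower in C26, whereas 0 members and 2 neighbours, Psma2 and Zfp189, were at least 1.5-fold higher, against 10.5% and 10.1% of all genes. Mrpl32 and its neighbour Psma2, a proteasome subunit, were both higher in C26 than in Sham, by 0.35 and 0.66.

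**Figure D5:**
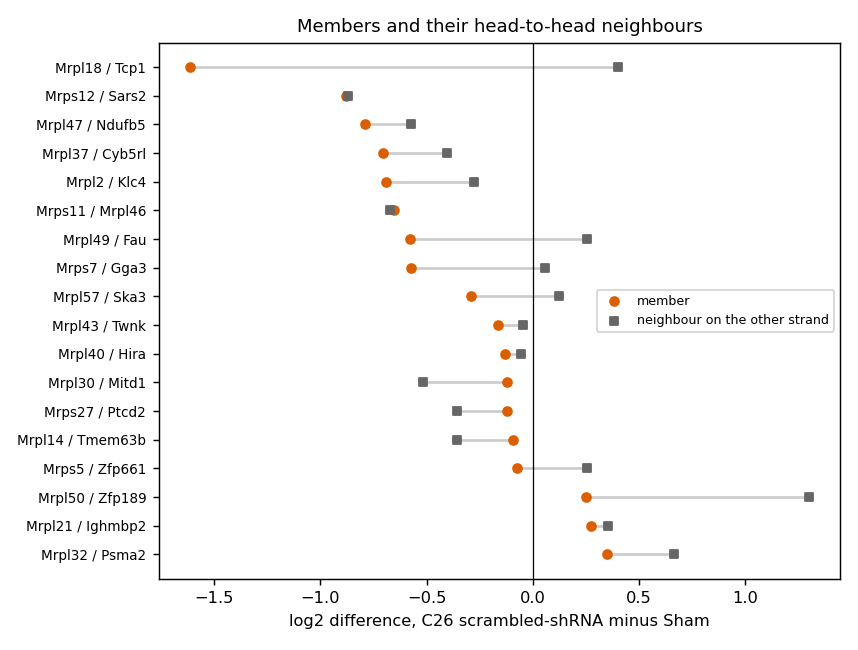
Log2 difference C26 scrambled-shRNA minus Sham of members (circles) and of the gene whose start lies within 500 bases on the other strand (squares), 1 line per pair; for the pair of 2 members Mrps11 is the circle. Mrps12 with Sars2 and Mrps11 with Mrpl46 nearly coincide, whereas Mrpl18 and Tcp1 lie at -1.62 and 0.40.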

How the data were processed

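The authors deposited 1 log2 value per gene and array, made from the array scans by Robust Multiarray Average (background correction, quantile normalization and summary per gene) with affy 1.36.1 under R 2.15.1, per the submitters' processing notes, and a custom mapping of probes to Entrez genes. Which arrays were normalized together is not given in the sources used here. Symbols came from the platform annotation (23185 of 25206 rows). Log2 differences, medians and counts past 1.5-fold and 2-fold were computed with Python 3.11.15, numpy 2.4.6 and pandas 2.3.3, with no filter on dim genes, and the counting was checked on simulated data. With 1 array per group no test was possible, and precision is limited by how few arrays there are. The members named are, per subunit, the 5 lowest and 5 highest of the first 2 comparisons, the 3 brightest and 2 dimmest, and the role groups; Mrps11, Mrpl46, Mrpl51, the other members listed at 1.5-fold, the pairs shown and the length of the promoter words were settled with their values already seen. The members and lists were chosen with earlier results of these data known. Alternatives were 3 other scalings, a filter on dim genes, the mean for the median, and another assignment to subunits. Promoter windows and gene starts came from RefSeq for GRCm38.p6 and may not be the build behind the probe mapping.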

Additional observations from a re-analysis of the deposited data

How the results depend on the processing

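For C26 against Sham, reference-gene centring put 3 members in place of 1 at least 2-fold higher and the Mrpl median at -0.092 in place of -0.17, and with the mean in place of the median the differences were -0.30 for Mrps and -0.31 for Mrpl genes, so the gap of Mrps minus Mrpl turned to 0.0045. For C26 FoxP1-shRNA against C26, centring each array on its median put 20 members at least 1.5-fold higher, 2 at least 2-fold higher and 1 at least 1.5-fold lower, whereas reference-gene centring gave medians of 0.18 (Mrps) and 0.22 (Mrpl), 0 members at least 2-fold higher and 4 at least 1.5-fold lower. For C26 FoxP1-shRNA against Sham, where the medians lie near 0, median centring turned them to 0.018 (Mrps) and 0.019 (Mrpl) with 2 members at least 2-fold higher, a second quantile normalization gave 2 members at least 2-fold higher and 2 at least 1.5-fold lower, reference-gene centring gave 0 at least 2-fold higher, 2 at least 1.5-fold higher and 8 at least 1.5-fold lower, and leaving out dim members turned the gap of Mrps minus Mrpl to 0.018. The constant shifts of the centrings account for their own changes; other causes were not tested. Among 132 differences of named members, 47 moved by over 0.1 or changed sign with reference-gene centring and 5 with median centring. No paired analysis was possible because each group is 1 array.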

Other observations

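Regulators of genes for mitochondrial proteins did not share one direction. Of 16 listed, 7 (43.75%) were lower and 9 (56.25%) higher in C26 than in Sham (median 0.15), near the 46.0% and 53.3% of all genes. With FoxP1-shRNA 11 (68.75%) were lower than in C26 (median -0.18), against 54.6% of all genes. Ppargc1b, a coactivator of mitochondrial biogenesis, had log2 values of 5.15 in C26 FoxP1-shRNA, 4.56 in C26 and 5.96 in Sham, and Esrra, a nuclear receptor that works with it, measured 6.13, 5.68 and 6.62 in that order. Both were thus lowest in C26, as were 52 of the 76 ribosome genes and 31.4% of all genes. A link between these regulators and the ribosome genes was not tested. The opposite order was seen for Nrf1, at 5.77 in C26 FoxP1-shRNA, 6.18 in C26 and 5.47 in Sham. Gabpb1, a subunit of GA-binding protein, measured 5.60, 6.02 and 5.70 in that order, so it was highest in C26 and lowest with FoxP1-shRNA. The C26 value was the highest in 39.8% of all genes. Myc, which drives growth and ribosome production in many cells, was above Sham in both tumour groups, at 6.98 in C26 FoxP1-shRNA, 7.16 in C26 and 5.84 in Sham. Ppargc1a, the best-known coactivator of this group in muscle, measured 8.64, 8.87 and 8.70 in that order and so stayed within 1.5-fold across the arrays.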
